A study of Homo sapiens with 6 samples.

Results

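The genes that make the attachment of cells to their surroundings were followed in the human glioma line U251 after an siRNA against RPL13. Members were chosen by symbol from the protein-coding genes of the deposited table: the integrin alpha and beta subunits, the laminin alpha, beta and gamma chains, and 10 named matrix glycoproteins that were present. They came to 44 of 21429 genes, namely 15 integrin alpha, 8 integrin beta, 11 laminin and 10 matrix glycoprotein genes. Of these, 35 had a mean regularized-log (rlog) value of at least 3 over the 6 libraries and were tested, and 9 lay below it.

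Integrins are receptors made of 1 alpha and 1 beta subunit that span the membrane, bind matrix proteins outside the cell and are tied to actin inside it through adaptors such as talin. Laminins are trimers of an alpha, a beta and a gamma chain, the main adhesive proteins of basement membranes, where nidogens link them to other networks. Fibronectin, thrombospondins, tenascin C, SPARC and fibrillins are matrix proteins that cells bind through integrins or that modulate such binding, and several are known components of the matrix that glioma cells lay down.

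All 6 cultures were U251 cells with stable expression of a mutant amyloid precursor protein (K670N/M671L), which doxycycline at 1 µg/mL induced from 24 h. They were electroporated with a control siRNA (siNC, 3 libraries) or with an siRNA against RPL13, a protein of the large ribosomal subunit (siRPL13, 3 libraries), and harvested at 72 h. The labels call the libraries biological replicates without saying how the cultures were separated, so the p-values measure the spread between these libraries. The sources used here do not say whether the stable line was 1 clone.

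RPL13 itself stood at 14.05, 14.16 and 14.18 in the siNC libraries 1 to 3 and at 13.03 and 13.12 in siRPL13 libraries 1 and 2, whereas the library labelled siRPL13 replicate 3 had 14.09, inside the siNC range. Genes named as changed are therefore given for all 6 libraries and for the 5 without that library, a choice made with its RPL13 value known, and the other differences are those of the 5 unless stated. Of the glial markers checked, VIM (15.90 to 16.33 over the 6 libraries), GFAP (14.73 to 15.50), NES (14.11 to 14.53) and SOX2 (13.38 to 13.52) were high, S100B (5.48 to 5.83) and OLIG2 (1.62 to 1.73) were low, and AQP4 was not analysed here. Read depth is unknown. An rlog value is on the log2 scale and is drawn towards the gene's mean, so differences of low genes are understated.

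In siNC cells the highest of these adhesion genes by rlog value were ITGA3, SPARC, TNC, ITGB4 and ITGB1. To compare genes, the log2 of the exon length in kilobases was subtracted from the rlog value, which gives a level per length on the log2 scale. That length joins all annotated exons of a gene. The lengths of the transcripts present are not known, so the order of genes at close levels is uncertain. On that scale the alpha subunits ran from ITGA3, a laminin receptor subunit, at 12.91 ± 0.10 (SD, n = 3) through ITGA5 (9.93 ± 0.21), ITGAV (9.61 ± 0.13) and ITGA6 (8.27 ± 0.03) down to ITGA2B, ITGA11 and ITGAX. ITGAE and ITGA7 overlapped each other, as did ITGA11 and ITGAX, while each of the other tested alpha subunits lay above the next one in every siNC library. Among beta subunits ITGB4, the hemidesmosome subunit, at 11.57 ± 0.11 and ITGB1, the shared partner of most alpha subunits, at 11.47 ± 0.06 overlapped, followed by ITGB5 (8.90 ± 0.05), ITGB8 (7.76 ± 0.09) and ITGB3 (6.50 ± 0.13).

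Laminin chains were led by LAMC1 (10.86 ± 0.04, SD, n = 3), then LAMB2 (10.18 ± 0.11) and LAMB1 (9.85 ± 0.04) on the per-length scale. The alpha chains LAMA5 (9.26 ± 0.12) and LAMA4 (9.01 ± 0.11) came next, LAMA4 overlapping LAMB3, and LAMA2 stood far lower at 4.76 ± 0.04. LAMA3, an epithelial alpha chain, was under the minimum, with rlog values of 2.41 to 2.53 over the 6 libraries. Among matrix glycoproteins SPARC (13.62 ± 0.07) and TNC (12.51 ± 0.04) stood above THBS2 (10.59 ± 0.21), THBS1 (10.07 ± 0.13), NID1 (9.39 ± 0.06) and FN1 (7.95 ± 0.11). The other 8 members under the minimum were ITGA9, ITGA10, ITGAM, ITGB6, ITGB7, LAMA1, LAMB4 and VTN, from 0.19 for ITGAM, a leukocyte subunit, to 3.02 for LAMA1 in single libraries.

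**Figure D1:**
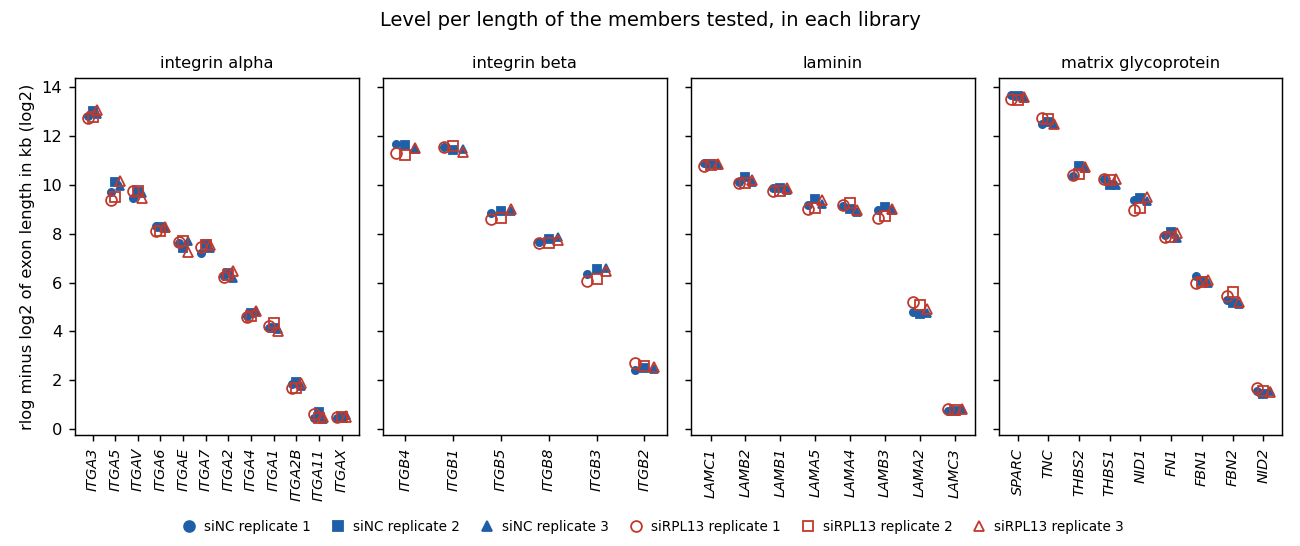
Level per length (rlog minus the log2 of the exon length in kilobases, vertical axis) of the 35 members tested, by class, with one point per library, siNC filled blue and siRPL13 open red, the shape giving the replicate number. The range between members, from 0.51 for ITGAX to 13.62 for SPARC in the siNC means, is far wider than the difference between libraries of 1 member.

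With all 6 libraries no member passed the test, and neither did RPL13 itself (-0.72 ± 0.24, SE, log2; adjusted p 0.589 by limma). Of 35 members 0 had an adjusted p under 0.05 (limma), as of all 15327 genes tested 0 (0%) did, and the smallest adjusted p of a member was 0.589. At an unadjusted p under 0.05, 1 member was higher, LAMA2 (2.86%, against 3.91% of all genes), and 2 were lower, ITGB3 and ITGB4 (5.71%, against 4.40%). The 3 siRPL13 values lay above all 3 siNC values for ITGB2 and LAMA2 (5.71%, against 6.92% of all genes) and below them for 0 members (against 6.90%). With library weights estimated by limma, 6 members were higher and 11 lower. The siRPL13 libraries 1 to 3 then had weights of 0.992, 7.19 and 0.163, so the siRPL13 side of these counts rested mostly on library 2.

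In the 5-library comparison 4 members were higher in siRPL13 and 7 lower, and "rose" and "fell" refer below to an adjusted p under 0.05 by limma in it. FBN2, LAMA2, LAMA4 and TNC rose, 11.4% of the members tested against 8.42% of all genes. ITGA5, ITGB3, ITGB4, ITGB5, LAMA5, LAMB3 and NID1 fell, 20.0% against 10.7%. Groups did not overlap for 9 members in the higher direction (25.7%, against 24.7%) and 15 in the lower (42.9%, against 26.6%). The median difference of the members was -0.09 (log2) against -0.0014 for all genes, and their median absolute difference 0.14 against 0.10. The other 24 members had differences between -0.10 (ITGA6) and 0.15 (THBS1) over all 6 libraries, and ITGAE was the one whose sign differed between the comparisons (0.11 and -0.03).

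The calls rested on having both siRPL13 libraries 1 and 2. Without siRPL13 replicate 1 none of the 11 members passed (0 higher and 0 lower), and without siRPL13 replicate 2 ITGA5, ITGB5, LAMA2, LAMB3 and NID1 did (1 higher and 4 lower), every difference keeping its direction. In these fits the lone siRPL13 library is assumed to vary like the siNC libraries. Without siNC replicate 1, 11 members were lower, and without siNC replicate 3, 2 were higher. In the library labelled siRPL13 replicate 3 the 11 members were nearer to the siNC mean than in the other siRPL13 libraries, 6 of them inside the siNC range, 4 above it (ITGA5, ITGB5, NID1 and LAMA2) and 1, TNC, below it.

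**Figure D2:**
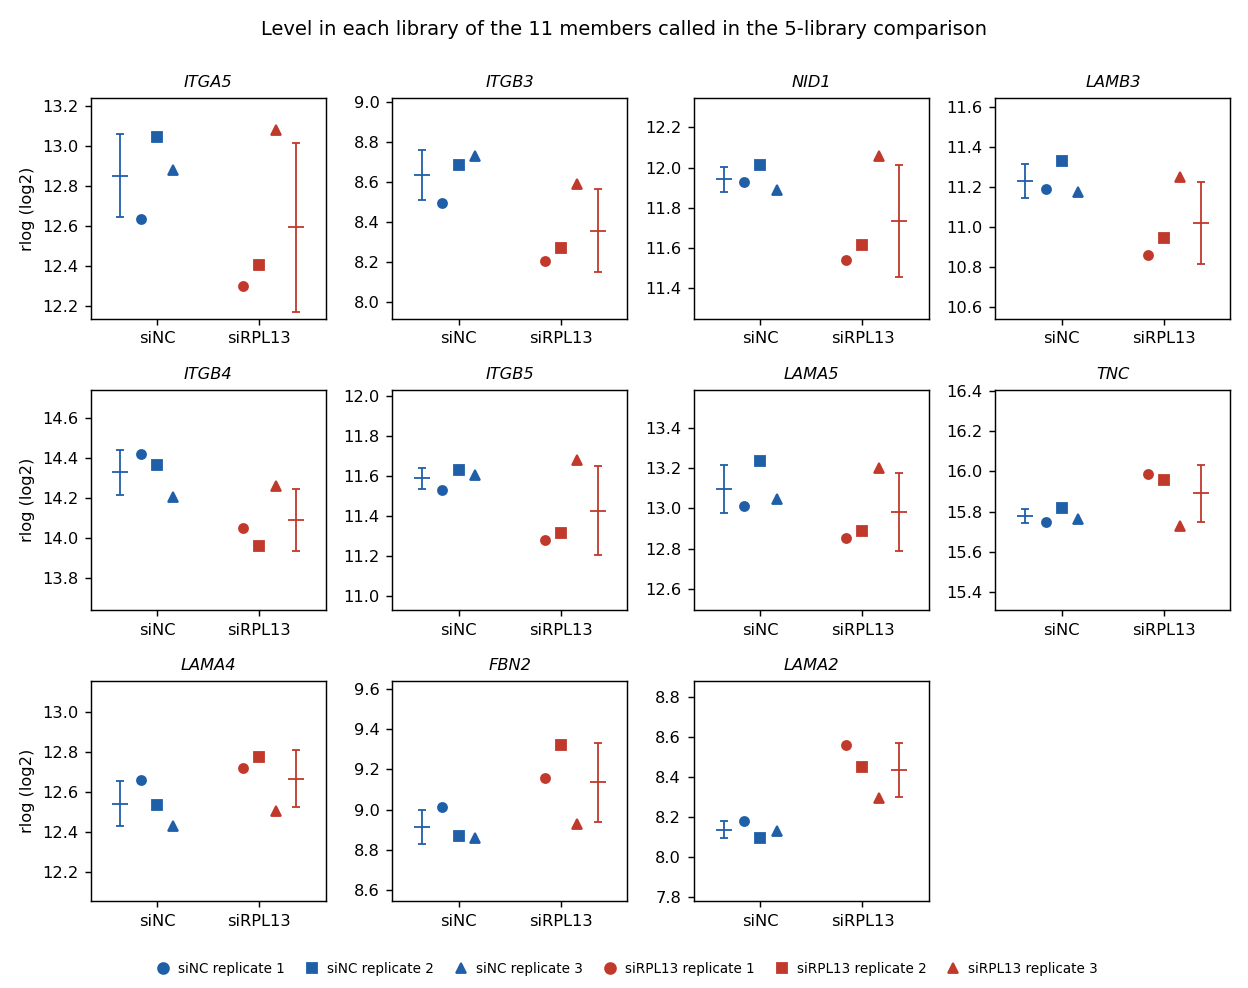
Level of the 11 members called in the 5-library comparison as rlog values (log2; each axis spans the same width and does not start at 0), one point per library, with the mean of 3 libraries ± SD beside each group. For ITGA5 the library labelled siRPL13 replicate 3 lies at 13.08, above the siNC libraries, while siRPL13 libraries 1 and 2 lie at 12.30 and 12.40, below them.

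Start regions are shown for 4 of the called members, with the DNA letters around which their transcripts begin. RefSeq windows of 300 bases (250 before a start and 50 after it, build GRCh38.p14) were matched by symbol for 35 of the 44 members and 9 of the 11 called. Called members with 1 window that also holds the GENCODE 29 gene start were LAMA5 and the 4 printed, which are those 2 with the larger falls and both that rose: ITGA5 (chr12:54419217-54419516, minus strand), NID1 (chr1:236065041-236065340, minus strand), LAMA2 (chr6:128882888-128883187, plus strand) and TNC (chr9:115118108-115118407, minus strand). They run 5′ to 3′ on the gene's strand. Capitals mark matches on either strand to the AP-1 motif TGANTCA, to the GC box letters bound by Sp1-type factors, GGGCGG, and to the TEAD motif that is written GGAATG. The letters of the TATA box, which were searched as TATAAA, and of the E-box, searched on both strands as CACGTG, were not found in these 4, and no matches overlapped.
ITGA5: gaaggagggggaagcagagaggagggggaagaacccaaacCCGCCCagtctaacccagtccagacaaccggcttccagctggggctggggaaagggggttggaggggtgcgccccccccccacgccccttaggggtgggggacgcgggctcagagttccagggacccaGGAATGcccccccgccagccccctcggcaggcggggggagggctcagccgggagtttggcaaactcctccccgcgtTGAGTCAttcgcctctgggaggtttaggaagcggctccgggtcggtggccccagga
NID1: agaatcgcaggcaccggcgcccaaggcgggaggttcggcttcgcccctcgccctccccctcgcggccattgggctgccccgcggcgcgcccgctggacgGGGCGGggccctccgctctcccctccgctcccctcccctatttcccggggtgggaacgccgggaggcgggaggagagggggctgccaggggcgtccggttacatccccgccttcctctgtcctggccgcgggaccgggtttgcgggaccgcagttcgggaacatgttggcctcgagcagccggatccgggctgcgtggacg
LAMA2: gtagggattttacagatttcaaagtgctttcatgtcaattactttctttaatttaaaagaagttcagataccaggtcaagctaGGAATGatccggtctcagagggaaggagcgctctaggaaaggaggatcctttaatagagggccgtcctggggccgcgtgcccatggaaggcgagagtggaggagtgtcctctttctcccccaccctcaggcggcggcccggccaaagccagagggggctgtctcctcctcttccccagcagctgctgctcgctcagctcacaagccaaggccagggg
TNC: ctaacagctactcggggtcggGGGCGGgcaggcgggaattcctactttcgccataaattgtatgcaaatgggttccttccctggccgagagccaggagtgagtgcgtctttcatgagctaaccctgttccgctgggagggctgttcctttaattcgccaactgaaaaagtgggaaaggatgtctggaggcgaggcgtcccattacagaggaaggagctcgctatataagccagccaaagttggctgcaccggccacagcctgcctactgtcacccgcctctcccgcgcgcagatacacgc

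The ITGA5 window held 1 match each to the AP-1, GC box and TEAD letters, those of NID1 and TNC 1 GC box each, and that of LAMA2 1 TEAD match. Over the 42 windows of members, GC box letters stood in 24 (57.1%, against 45.0% of 35116 RefSeq windows), TEAD letters in 9 (21.4%, against 14.0%), AP-1 in 3 (7.14%, against 7.71%), TATAAA in 3 (7.14%, against 11.5%) and CACGTG in 2 (4.76%, against 7.26%). A match is a description of the letters only.

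Among integrin alpha subunits ITGA5 was the only one of 12 tested that passed in the 5-library comparison, against 10.7% of all genes lower and 8.42% higher. ITGA5 (ENSG00000161638, GRCh38 chromosome 12, 54395261 to 54419460, minus strand) encodes the subunit that pairs with ITGB1 as the main fibronectin receptor. It stood at 12.63, 13.04 and 12.88 in the siNC libraries 1 to 3 and at 12.30 and 12.40 in siRPL13 libraries 1 and 2, against 13.08 in that labelled siRPL13 replicate 3. The siNC libraries were themselves spread (12.85 ± 0.21, SD, n = 3), and both lower siRPL13 values lay under all of them. ITGA5 fell by 0.50 ± 0.09 (SE, log2; adjusted p 0.00563 by limma), to 70.8% of siNC on this scale. With all 6 libraries the difference was -0.26 ± 0.19 (adjusted p 0.673 by limma), and without siRPL13 replicate 1 the adjusted p of the 5-library comparison was 0.102.

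The other alpha subunits had smaller differences in the 5-library comparison, none past the threshold. ITGA3, the most abundant of them, stood at 16.12, 16.31 and 16.17 in siNC and at 16.00 and 16.06 in siRPL13 libraries 1 and 2, against 16.34 in that labelled siRPL13 replicate 3 (-0.17 ± 0.07, adjusted p 0.104 by limma). ITGA6, which pairs with ITGB4 or ITGB1 as a laminin receptor, was nearest to the threshold at -0.16 ± 0.05 (adjusted p 0.0515 by limma), with 10.97 ± 0.03 (SD, n = 3) in siNC and 10.82 and 10.81 in siRPL13 libraries 1 and 2. The laminin receptor subunit ITGA7 (0.08 ± 0.09) had a difference smaller than its error. Those of the collagen receptors were 0.16 ± 0.07 for ITGA1, 0.01 ± 0.07 for ITGA2 and 0.03 ± 0.08 for ITGA11. ITGAV, the alpha partner of ITGB3, ITGB5 and ITGB8, had a positive difference (0.14 ± 0.07), as had ITGAE (0.11 ± 0.08). ITGA4, ITGA2B and ITGAX, known mostly from blood cells, lay at -0.14, -0.16 and -0.01.

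Of 6 beta subunits tested 3 fell and 0 rose in the 5-library comparison, against 10.7% and 8.42% of all genes. ITGB3 (ENSG00000259207, GRCh38 chromosome 17, 47253846 to 47311816, plus strand), whose product pairs with that of ITGAV as a vitronectin receptor, stood at 8.49, 8.68 and 8.73 in siNC and at 8.21 and 8.27 in siRPL13 libraries 1 and 2, against 8.59 in that labelled siRPL13 replicate 3. ITGB4 (ENSG00000132470, chromosome 17, 75721328 to 75757818, plus strand), the laminin receptor subunit of hemidesmosomes, stood at 14.42, 14.36 and 14.21 in siNC and at 14.05 and 13.96 in siRPL13 libraries 1 and 2, against 14.26 in that labelled siRPL13 replicate 3. ITGB5 (ENSG00000082781, chromosome 3, 124761948 to 124901418, minus strand), another partner of ITGAV, stood at 11.53, 11.63 and 11.61 in siNC and at 11.28 and 11.32 in siRPL13 libraries 1 and 2, against 11.68 in that labelled siRPL13 replicate 3. In each of these genes siRPL13 libraries 1 and 2 lay below all siNC libraries, and the library labelled siRPL13 replicate 3 lay among them or, for ITGB5, above them. The exons of ITGB3 overlap those of AC068234.1, a protein-coding gene on the same strand that has no value here. How reads in the shared part were counted is not known.

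ITGB3 fell by 0.40 ± 0.08 (SE, log2; adjusted p 0.00910 by limma), ITGB4 by 0.32 ± 0.07 (adjusted p 0.00835) and ITGB5 by 0.29 ± 0.05 (adjusted p 0.00431), to 75.9%, 80.0% and 81.8% of siNC. With all 6 libraries the differences were -0.28 ± 0.11, -0.24 ± 0.09 and -0.16 ± 0.10, with adjusted p 0.589, 0.589 and 0.638 by limma. Without siRPL13 replicate 1 the adjusted p were 0.129, 0.0825 and 0.107, and without siRPL13 replicate 2 those of ITGB3 and ITGB4 were 0.0536 and 0.115 (limma). ITGB1 did not pass, at 14.13, 14.01 and 14.04 in siNC and at 14.14 and 14.17 in siRPL13 libraries 1 and 2, against 13.92 in that labelled siRPL13 replicate 3 (0.10 ± 0.05). A processed pseudogene, ITGB1P1, had rlog values of 9.59 to 9.84, so the split of reads between ITGB1 and this near-copy is uncertain. ITGB8, which with ITGAV activates latent TGF-beta, lay at -0.13 ± 0.06, and ITGB2, the leukocyte beta subunit, at 0.17 ± 0.07 from a low level (5.20 to 5.28 in siNC).

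**Figure D3:**
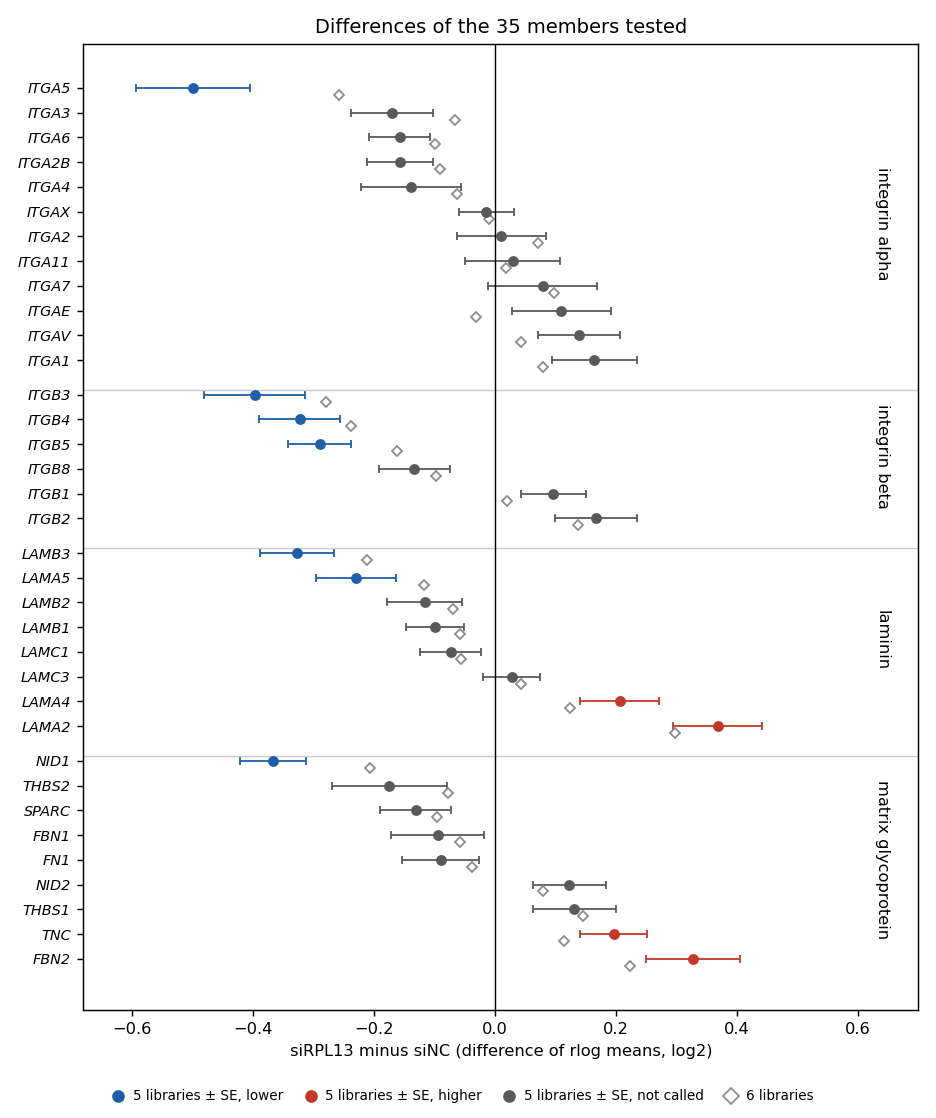
Difference of the rlog means, siRPL13 minus siNC (horizontal axis, log2), for the 35 members tested, grouped by class. Filled circles are the 5-library comparison ± SE, coloured where the adjusted p was under 0.05, and open diamonds the difference with all 6 libraries, which was nearer to 0 than the 5-library one for each of the 11 called members.

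Among laminin chains 2 of 8 tested rose and 2 fell in the 5-library comparison, against 8.42% and 10.7% of all genes. LAMA2 (ENSG00000196569, GRCh38 chromosome 6, 128883141 to 129516569, plus strand), the alpha chain of the laminin of muscle and glial basement membranes, stood at 8.18, 8.10 and 8.13 in siNC and at 8.56 and 8.45 in siRPL13 libraries 1 and 2, against 8.30 in that labelled siRPL13 replicate 3. It was the one called member whose 3 siRPL13 values all lay above siNC. It rose by 0.37 ± 0.07 (SE, log2; adjusted p 0.00699 by limma), with 0.30 ± 0.08 (adjusted p 0.589) over all 6 libraries and an adjusted p of 0.139 without siRPL13 replicate 1. LAMA4 (ENSG00000112769, chromosome 6, 112108760 to 112254939, minus strand), the alpha chain of vessel-wall laminins, stood at 12.66, 12.53 and 12.43 in siNC and at 12.72 and 12.78 in siRPL13 libraries 1 and 2, against 12.50 in that labelled siRPL13 replicate 3. LAMA4 rose by 0.21 ± 0.06 (adjusted p 0.0467 by limma), against 0.12 ± 0.09 (adjusted p 0.658) over all 6 libraries, and lost the call without the low-value filter (0.0647), without a variance trend (0.0797) and without siNC replicate 2 (0.0816), siNC replicate 3 (0.126), siRPL13 replicate 1 (0.215) or siRPL13 replicate 2 (0.279).

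LAMA5 (ENSG00000130702, GRCh38 chromosome 20, 62307955 to 62367312, minus strand), the alpha chain of widespread basement membrane laminins, stood at 13.01, 13.24 and 13.05 in siNC and at 12.85 and 12.89 in siRPL13 libraries 1 and 2, against 13.20 in that labelled siRPL13 replicate 3. LAMA5 fell by 0.23 ± 0.07 (SE, log2; adjusted p 0.0343 by limma), against -0.12 ± 0.10 (adjusted p 0.715) over all 6 libraries, a call lost with quantile scaling (0.0859), without a variance trend (0.0622) and without siRPL13 replicate 1 (0.272) or 2 (0.151). Its exons overlap those of ADRM1, a proteasome receptor gene on the other strand with a mean rlog of 11.71, and the sources used here do not say whether reads were counted by strand. Both chains that accompany the 3 alpha chains in most of these trimers, LAMB1 and LAMC1, had small differences that did not pass (-0.10 ± 0.05 and -0.07 ± 0.05), as had LAMB2 (-0.12 ± 0.06) and LAMC3 (0.03 ± 0.05). LAMC1, the most abundant chain, stood at 13.96, 13.93 and 13.89 in siNC and at 13.82 and 13.89 in siRPL13 libraries 1 and 2, against 13.91 in that labelled siRPL13 replicate 3.

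LAMB3 (ENSG00000196878, GRCh38 chromosome 1, 209614870 to 209652466, minus strand), a beta chain known from epithelial laminin, stood at 11.19, 11.33 and 11.18 in siNC and at 10.86 and 10.95 in siRPL13 libraries 1 and 2, against 11.25 in that labelled siRPL13 replicate 3. LAMB3 fell by 0.33 ± 0.06 (SE, log2; adjusted p 0.00517 by limma), with an adjusted p of 0.120 without siRPL13 replicate 1. With all 6 libraries the difference was -0.21 ± 0.10 (adjusted p 0.589 by limma).

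Distances between members known to pair or to replace each other were also taken within each library. ITGB3 minus ITGAV stood at -4.01, -4.05 and -3.98 (log2) in siNC and at -4.59 and -4.52 in siRPL13 libraries 1 and 2, against -3.91 in that labelled siRPL13 replicate 3. Both siRPL13 libraries 1 and 2 lay below the siNC range. ITGB5 minus ITGAV went from -1.06 ± 0.08 (SD, n = 3) in siNC to -1.51 and -1.47, and ITGA5 minus ITGB1 from -1.21 ± 0.27 to -1.84 and -1.77. The library labelled siRPL13 replicate 3 lay beyond siNC on the other side in these 3 pairs, at -0.82 for ITGB5 minus ITGAV and -0.85 for ITGA5 minus ITGB1. For ITGB4 minus ITGA6 the shift was smaller, from 3.36 ± 0.08 to 3.23 and 3.15, with 3.27 in that labelled siRPL13 replicate 3. LAMA4 minus LAMA5, alternative alpha chains, went from -0.56 ± 0.18 to -0.13 and -0.11, and NID1 minus NID2, the nidogens, from 7.75 ± 0.13 to 7.16 and 7.35, with -0.70 and 7.86 in that labelled siRPL13 replicate 3. These distances follow from the single-gene differences above, and no separate test of them was made.

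**Figure D4:**
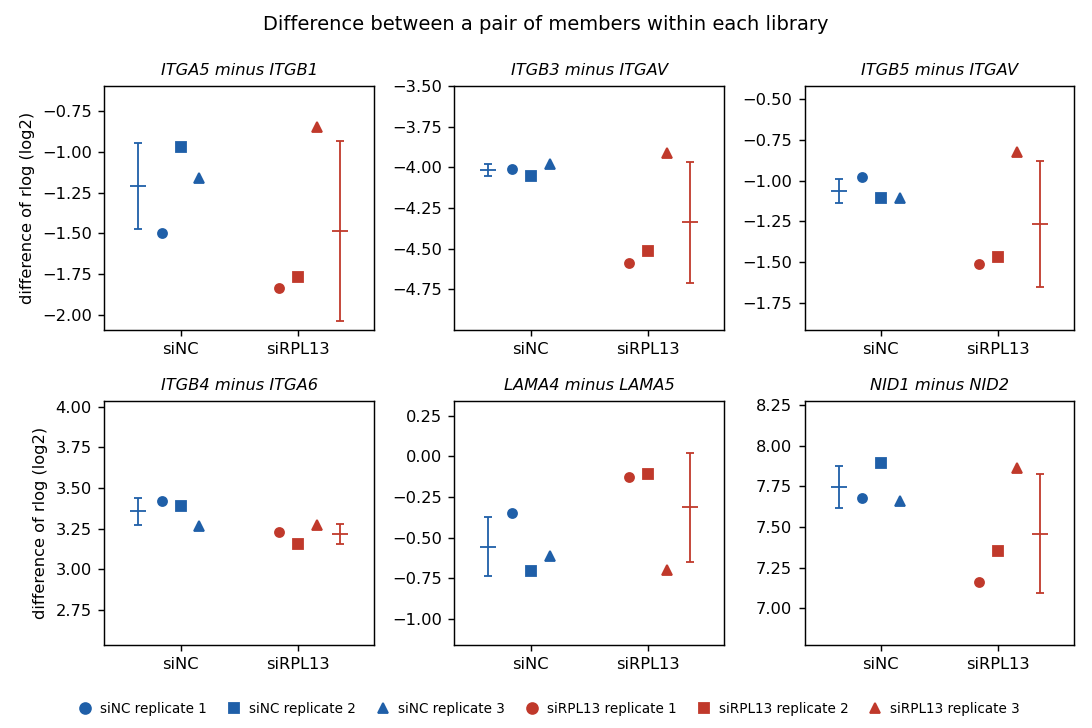
Difference between the rlog values of a pair of members within each library (vertical axes, log2, of equal width), one point per library, with the mean of 3 libraries ± SD beside each group. In siRPL13 libraries 1 and 2 ITGB3 minus ITGAV lies at -4.59 and -4.52, below all siNC libraries, and LAMA4 minus LAMA5 at -0.13 and -0.11, above them, while the library labelled siRPL13 replicate 3 is inside or beside the siNC range.

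Among matrix glycoproteins 2 of 9 tested rose and 1 fell in the 5-library comparison, against 8.42% and 10.7% of all genes, the lower count being near that share. NID1 (ENSG00000116962, GRCh38 chromosome 1, 235975830 to 236065162, minus strand), the nidogen that bridges laminin and collagen IV, stood at 11.93, 12.01 and 11.89 in siNC and at 11.54 and 11.61 in siRPL13 libraries 1 and 2, against 12.06 in that labelled siRPL13 replicate 3. It fell by 0.37 ± 0.05 (SE, log2; adjusted p 0.00196 by limma), the smallest adjusted p of the members, against -0.21 ± 0.12 (adjusted p 0.627) over all 6 libraries and an adjusted p of 0.0707 without siRPL13 replicate 1. Its paralog NID2, far lower at 4.12 to 4.25 in siNC, lay at 0.12 ± 0.06 and did not pass.

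TNC (ENSG00000041982, GRCh38 chromosome 9, 115019578 to 115118257, minus strand), tenascin C, stood at 15.75, 15.82 and 15.77 in siNC and at 15.99 and 15.96 in siRPL13 libraries 1 and 2, against 15.73 in that labelled siRPL13 replicate 3, below all siNC libraries. FBN2 (ENSG00000138829, chromosome 5, 128257909 to 128659185, minus strand), a fibrillin of microfibrils, stood at 9.01, 8.87 and 8.86 in siNC and at 9.16 and 9.32 in siRPL13 libraries 1 and 2, against 8.93 in that labelled siRPL13 replicate 3. TNC rose by 0.20 ± 0.05 (SE, log2; adjusted p 0.0310 by limma) and FBN2 by 0.33 ± 0.08 (adjusted p 0.0148). Both calls were lost without siRPL13 replicate 1 (0.321 and 0.0715) or 2 (0.188 and 0.179), and that of TNC without siNC replicate 3 (0.0618). The exons of FBN2 overlap those of SLC27A6 on the other strand, at a mean rlog of 4.10. Over all 6 libraries the differences were 0.11 ± 0.08 and 0.22 ± 0.10 (adjusted p 0.668 and 0.589 by limma).

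The other matrix proteins did not pass. SPARC, the highest of the class, stood at 15.95, 15.90 and 15.82 in siNC and at 15.77 and 15.75 in siRPL13 libraries 1 and 2, against 15.86 in that labelled siRPL13 replicate 3 (-0.13 ± 0.06, adjusted p 0.144 by limma). FN1, fibronectin, the ligand of the receptor that holds ITGA5, lay at -0.09 ± 0.06, with 11.95 to 12.18 in siNC against 11.98 in both siRPL13 libraries 1 and 2. FBN1 lay at -0.09 ± 0.08. The thrombospondins, known for binding CD47, lay on opposite sides of 0, THBS1 at 0.13 ± 0.07 and THBS2 at -0.17 ± 0.09. Their siNC ranges of 13.17 to 13.41 and 13.04 to 13.44 overlapped siRPL13 libraries 1 and 2.

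Receptors and partners that share ligands or membrane complexes with integrins were read from a list of 19, of which 18 were tested. In the 5-library comparison 7 fell and 0 rose, against 10.7% and 8.42% of all genes, with a median difference of -0.08. The tetraspanins CD9 and CD81, which associate with integrins in the membrane, fell by 0.43 ± 0.05 (adjusted p 0.000704 by limma) and 0.42 ± 0.05 (0.000816), and the heparan sulfate proteoglycan SDC3 by 0.41 ± 0.06 (0.00118). CD9 stood at 12.26, 12.30 and 12.20 in siNC and at 11.80 and 11.83 in siRPL13 libraries 1 and 2, against 12.27 in that labelled siRPL13 replicate 3. The remaining 4, named after their values were seen, were CD151 (-0.36), a tetraspanin bound to laminin-binding integrins, SDC1 (-0.36), TSPAN4 (-0.29) and DAG1 (-0.16), the dystroglycan laminin receptor. CD9, CD81 and SDC3 still passed without siRPL13 replicate 1, when 3 of the list did, and without siNC replicate 1 1 of the list was also higher. With all 6 libraries the differences were -0.28 ± 0.12 for CD9, -0.26 ± 0.12 for CD81 and -0.25 ± 0.12 for SDC3, and the smallest adjusted p in the list was 0.589 (limma). Over those libraries CD151 lay at -0.23, SDC1 at -0.18, TSPAN4 at -0.15 and DAG1 at -0.10.

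**Figure D5:**
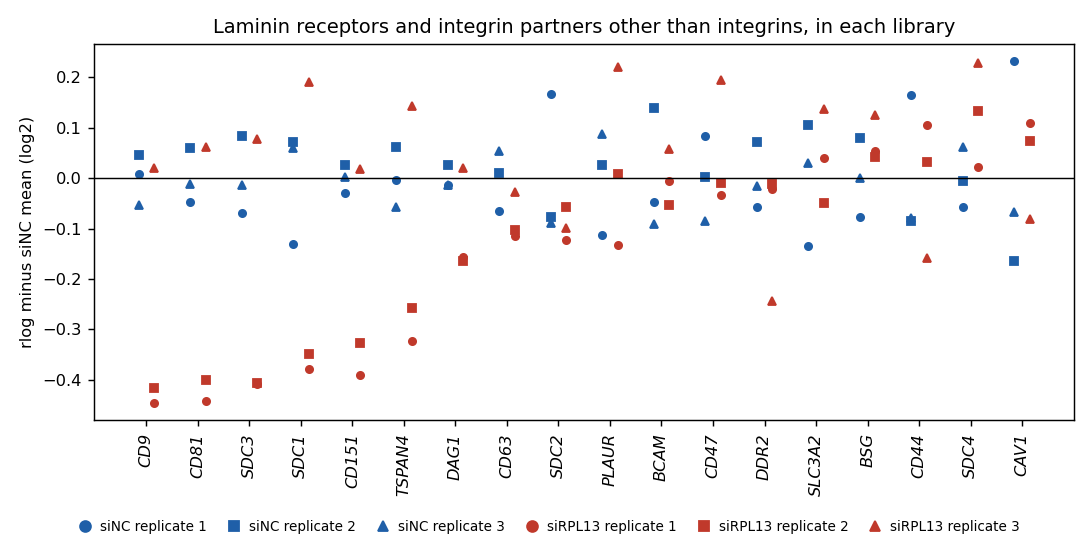
Distance of each library's rlog value from the siNC mean (vertical axis, log2) for 18 laminin receptors and integrin partners other than integrins, ordered by the 5-library difference, with blue siNC points, red siRPL13 points and 1 shape per replicate number. For CD9, CD81, SDC3, SDC1, CD151, TSPAN4 and DAG1 siRPL13 libraries 1 and 2 lie below the siNC libraries, and the library labelled siRPL13 replicate 3 lies among or above them.

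Of 42 tested adaptors, kinases and actin linkers of integrin adhesions, 8 fell and 3 rose in the 5-library comparison, against 10.7% and 8.42% of all genes, with a median of -0.0024 (log2). LIMS1, which joins integrin-linked kinase to its complex, rose by 0.35 ± 0.06 (adjusted p 0.00410 by limma), and TLN2, a talin that links integrin tails to actin, by 0.33 ± 0.05 (0.0030). SRC, a kinase of adhesion signalling, fell by 0.32 ± 0.07 (0.0101). Over all 6 libraries the values were 0.21 ± 0.11 for LIMS1, 0.26 ± 0.08 for TLN2 and -0.16 ± 0.13 for SRC, with adjusted p of 0.603, 0.589 and 0.704 by limma, so that none passed. TLN1, the main talin, lay at -0.04 ± 0.05 and did not pass. Without siRPL13 replicate 1 the counts were 0 and 0, without siRPL13 replicate 2 none fell, without siNC replicate 2 there were 4 lower, with quantile scaling 5 lower, and without siNC replicate 1 there were 7 higher.

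Of 26 tested other matrix glycoproteins and basement membrane linkers 5 fell and 4 rose in the 5-library comparison, against 10.7% and 8.42% of all genes, with a median of 0.01. MATN2, a matrilin of filamentous matrix, fell by 0.51 ± 0.07 (SE, log2; adjusted p 0.00113 by limma), from 8.50, 8.47 and 8.48 in siNC to 7.96 and 7.99, with 8.29 in the library labelled siRPL13 replicate 3. AGRN, a heparan sulfate proteoglycan that binds laminin and dystroglycan, fell by 0.47 ± 0.10 (adjusted p 0.00905), with 14.50 to 14.92 in siNC and at 14.17 and 14.28 in siRPL13 libraries 1 and 2, against 15.10 in that labelled siRPL13 replicate 3, above all siNC libraries. SPOCK1, a testican proteoglycan related to SPARC, rose by 0.48 ± 0.11 (0.0119). None passed over all 6 libraries, the differences being -0.40 ± 0.10 for MATN2, -0.18 ± 0.22 for AGRN and 0.34 ± 0.14 for SPOCK1, with adjusted p of 0.589, 0.798 and 0.589 by limma. Without siRPL13 replicate 1 MATN2 alone passed (0 higher, 1 lower), without siRPL13 replicate 2 the counts were 2 and 2, and without a variance trend 3 were lower.

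Markers of other cell types and of the line itself were read beside these genes, in the 5-library comparison, where 10.7% of all genes fell and 8.42% rose. No marker passed over all 6 libraries, the smallest adjusted p being 0.589 (limma). Of 8 tested astrocyte and glioma markers 2 fell, VIM (-0.31, and -0.29 over all 6 libraries) and NES (-0.34 and -0.25), and 0 rose. In the library labelled siRPL13 replicate 3, VIM (15.98), NES (14.41), GFAP (14.73), SOX9, CD44 and SLC1A3 also lay below all siNC libraries. S100B and SOX2 lay inside the siNC range there and OLIG2 above it. The log2 of the summed level of the 9 measured was 17.62 to 17.84 in siNC and at 17.56 and 17.49 in siRPL13 libraries 1 and 2, against 17.47 in that labelled siRPL13 replicate 3. Of 5 fibroblast and pericyte markers 2 fell, COL1A1 (-0.63, and -0.36 over all 6 libraries) and COL1A2 (-0.31 and -0.18), and 1 rose, RGS5 (0.46 and 0.29). Their summed levels were, in the same order of libraries, 15.60 to 15.79, 15.41 and 15.40, and 15.78. Of 3 tested endothelial markers KDR rose (0.21, and 0.13 over all 6 libraries) and CDH5 fell (-0.46 and -0.35). The sums over 4 were 11.80 to 11.95, 12.07 and 12.09, and 11.84, while TEK was near 0 at 0.52 to 0.58. For leukocytes CD68 was near 0 at 0.36 to 0.40 and CSF1R stood at 4.88 to 5.22, the other 4 not being analysed here, and the sums were 5.06 to 5.11 in siNC, 4.94 and 5.05 in siRPL13 libraries 1 and 2 and 5.27 in that labelled siRPL13 replicate 3. The summed levels add values on the linear scale, so the highest genes dominate them. In siNC library 1 KDR stood at 11.90 against an endothelial sum of 11.95. COL1A2 stood at 15.73 there against a fibroblast and pericyte sum of 15.76, and CSF1R at 5.02 against a leukocyte sum of 5.07. These sums therefore follow mainly a single gene each. All 6 cultures were of the U251 line, so these markers were read as genes of that line and not as counts of cell types. The part of these shifts in the adhesion genes was not tested.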

How the data were processed

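The deposited table holds 1 rlog value per Ensembl gene and library on the log2 scale, as its name states; DESeq2, HTSeq 0.6.1p1, TopHat, Trimmomatic 0.33 and build GRCh38.p7 stand in the submitters' processing notes, without roles or settings. The authors' values are not counts, so no count model was used, and depth is unknown. Symbols came from a table of current names (20499 of 21429 identifiers) and GENCODE 29 (20608, with types, positions and exon-union lengths); 821 were in neither. ITGBL1, an integrin-like gene, and the integrin binding proteins were left out of the members, and 1 further gene is not reported here. The 15327 genes whose mean rlog reached 3 were tested with limma 3.58.1 in R 4.3.3 (eBayes with a trend, two-sided, no covariates), Benjamini-Hochberg adjusted over all genes tested, threshold 0.05, and the script was checked on simulated data. Members and lists were chosen with earlier results of these data known, so lists have counts and medians only. Named in full were all called members, the highest of each class by rlog, and up to 3 called genes of each other list. Alternatives were other filters, quantile scaling, median centring, eBayes without or with a robust trend, arrayWeights, the replicate number as a block, and leaving out each library. Promoter windows are RefSeq's. Figures were drawn with matplotlib 3.10.9.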

Additional observations from a re-analysis of the deposited data

How the results depend on the processing

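In the comparison of 6 libraries the other filters, both scalings, both variance settings and the replicate block gave 0 genes and 0 members in either direction, as did leaving out a library, except for the one labelled siRPL13 replicate 3, so that leave-one-out counts ran from 0 to 1291 genes higher, 0 to 1642 lower, 0 to 4 members higher and 0 to 7 lower. Library weights gave 2601 genes higher and 2708 lower, with 6 and 11 members. In the comparison of 5 libraries, weights gave 2007 genes higher and 11 members lower, and leave-one-out counts ran from 102 to 1734 genes higher, 141 to 2014 lower, 0 to 5 members higher and 0 to 11 lower. Dropping the filter lost LAMA4, quantile scaling LAMA5, and eBayes without a trend both; with a minimum mean rlog of 5 ITGA6 passed too. The causes were not tested. The labels do not say whether the replicate numbers pair the libraries. Same-numbered deviations from the group means correlated at 0.084, -0.428 and -0.328, and no library correlated best with its own number. The deviations within a group depend on each other, and the library labelled siRPL13 replicate 3 differed from the other siRPL13 libraries. These correlations therefore cannot decide whether the cultures were paired. No direction of a called member reversed under any setting run. Because depth is unknown, the precision of low genes cannot be set against counting error.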

Other observations

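Genes named after integrins that are not subunits had these levels. ITGBL1 lay between 8.64 and 8.94 over the 6 libraries, ITGB1BP1, an adaptor of the ITGB1 tail, between 10.76 and 11.12, and ITGB3BP between 9.06 and 9.37. ITGB1-DT, a noncoding transcript divergent from ITGB1, lay between 4.50 and 4.94.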
